A study of Mus musculus with 36 samples.

Results

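Macrophages of the alveoli (AΦ) and monocytes, both sorted from lungs of mice, were compared after 4-weeks of exposure. The 12 libraries were 6 of AΦ (columns MF) and 6 of monocytes (Mono), chosen by their labels from the 36 libraries of the series, and within each cell type 3 were of filtered air (FA) and 3 of concentrated PM2.5 exposed mice. Only genes whose values averaged 1 FPKM or more over the 12 libraries were kept (FPKM are fragments mapped to a gene, divided by its transcript length and by the fragments of the library), which left 12973 of 27562 genes. The gene nearest this limit on the inside was Osbpl7 and the nearest outside was Gm45224, both within 0.001 of a mean of 1 FPKM.

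All mice were C57BL/6 by the labels. Per the study's methods they were males that carried CD45.2, had their lungs shielded with lead while the rest of the body was irradiated, were given busulfan and then received bone marrow of CD45.1 donors before exposure to FA or PM2.5. The labels give no CD45 form for the libraries of 4-weeks. The study's text treats these AΦ as tissue-resident and these monocytes as CD45.2, that is, as cells of the host, although most circulating monocytes of such chimeras come from the donor. What share of the monocytes of the lung they were was not measured here. The cells had been gated by CD45, Ly6G, CD11b, CD11c, CD64, CD24, MHC class II and Siglec-F, so the genes of these antigens describe the gates and are no independent result.

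AΦ live on the surface of the airspace, where they take up and break down surfactant, inhaled particles and dying cells. They arise from fetal precursors, depend on GM-CSF and TGF-beta and on the transcription factor PPAR-gamma, and renew themselves within the lung. Monocytes are made in the bone marrow and occur as a classical form that carries Ly6C and CCR2 and a patrolling, non-classical form that has little of either and needs NR4A1. The comparison sets out how far the transcripts of these neighbours in the lung lay apart.

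Depth in reads is unknown, since FPKM are not counts. The ratios of the lowest values between libraries put the relative depth of the 12 libraries between 0.732 and 1.504 times their median, with AΦ (0.861 to 1.504) and monocytes (0.732 to 1.32) overlapping. Between 84.1% and 91% of the summed FPKM of a library lay outside protein-coding genes, mostly in short RNAs such as Rny3 and Vaultrc5 in AΦ and Gm22513 in monocytes. Division by transcript length makes the values of short genes large, so these are not shares of the fragments. The sums over all genes were 1915192 to 2580779 in AΦ and 2372128 to 3339020 in monocytes. Some housekeeping genes with many near-identical copies in the genome were very low in every library, Gapdh at 0.312 to 2.23 FPKM in AΦ and 0.240 to 1.61 FPKM in monocytes, so low values and zeros of such genes can be failed estimates.

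The libraries of replicate 2 stood apart in all groups. In AΦ of replicate 2, transcripts of monocytes were present that replicates 0 and 1 nearly lacked. Ly6c2 was 16.5 FPKM in FA and 4.78 FPKM in PM2.5 against 0 in the other 4 AΦ libraries, and Plac8 was 32.4 and 13.5 FPKM against 0 to 0.273. These levels were far below those of any monocyte library, where Ly6c2 was at least 164 FPKM and Plac8 at least 358 FPKM. In monocytes of replicate 2 the complement component C1qa was 0.780 and 0.9998 FPKM against 55.4 to 167 in the other 4 libraries, and the MHC class II gene H2-Ab1 was 114 and 45.5 against 453 to 982. S100a9 of neutrophils went the other way, at 248 and 792 FPKM against 0.412 to 3.03. The part of these differences in the results was not tested beyond leaving replicate 2 out, and values without it are given beside the list counts and medians that it moved most. Without replicate 2 in all groups 5635 genes were called. Of the genes named below Cebpb, Gm23202, Ldha, Mmp8, Pf4, Rps6, Sftpc and Tlr3 then missed the threshold, and C1qa, C1qb, C1qc, Bhlhe40, Hba-a2 and Tlr2 passed it.

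**Figure D1:**
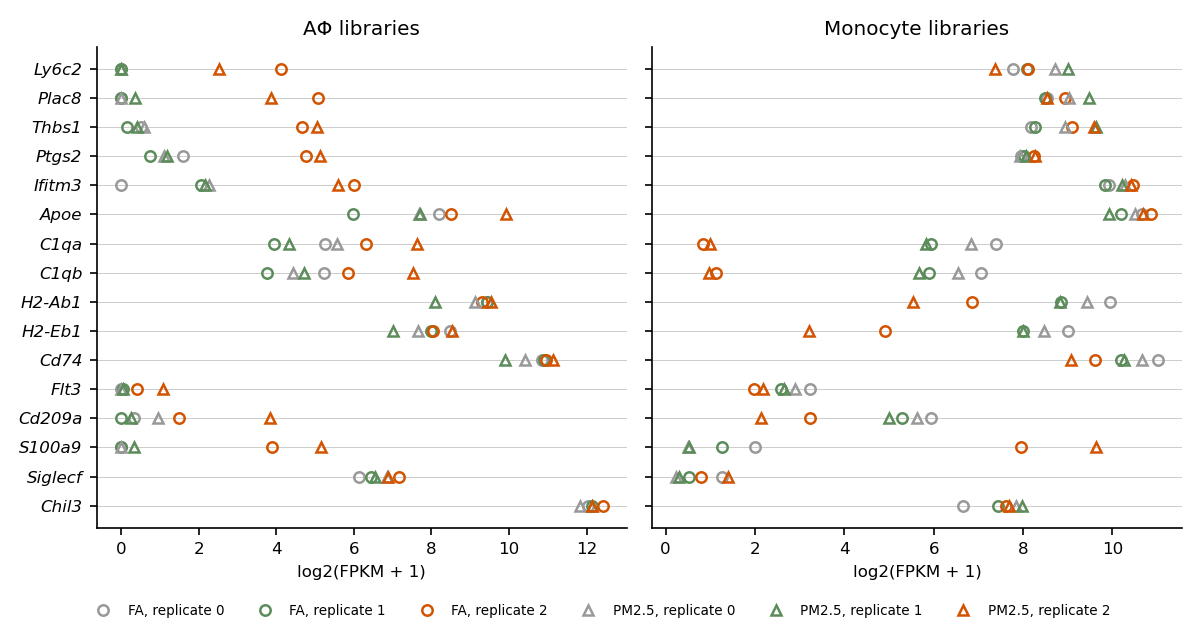
Values of 16 genes in each library at 4-weeks on the log2(FPKM + 1) scale, AΦ libraries on the left and monocyte libraries on the right, with circles for FA, triangles for PM2.5 and a colour for each replicate number. Replicate 2 (orange) held more Ly6c2, Plac8, Thbs1 and Ptgs2 among the AΦ libraries, and less C1qa, C1qb and MHC class II transcript with more S100a9 among the monocyte libraries.

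Nearly 1 gene in 2 differed between the cell types. In limma's test with exposure as a covariate 6302 genes passed an adjusted p of 0.05, which is 48.6% of the genes tested. Of these 2927 genes were higher in AΦ (22.6%) and 3375 lower (26%). The values of the 6 AΦ libraries and of the 6 monocyte libraries did not overlap for 3953 genes, 30.5% of those tested, and 3950 of them were called. Log2 fold changes, all given as AΦ minus monocytes on log2(FPKM + 1), were at least 1 for 1325 genes that were called higher and at most -1 for 1658 called lower. Differences of at least 5 on this scale were called for 35 genes higher and 37 lower in AΦ.

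The split between higher and lower calls depended on the scaling. With each library scaled to its sum of FPKM, 3823 genes were higher and 1940 lower, and the higher share of the calls went from 46.4% to 66.3%. The median log2 fold change of all genes moved with it from -0.048 to 0.22. Scaled to the sum over protein-coding genes, an alternative chosen after seeing the data, 3903 were higher and 2694 lower (59.2% higher, median 0.12). Small changes are therefore read relative to these shifts of 0.27 and 0.17, and the large ones below exceed them. Of the genes named below as lower Cebpb, Cox7a2l, F10, Mmp8, Pgk1, Psmb8, Rps3, Rps6, Tgfb1 and Tlr7 missed the threshold when scaled to the sum of FPKM.

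**Figure D2:**
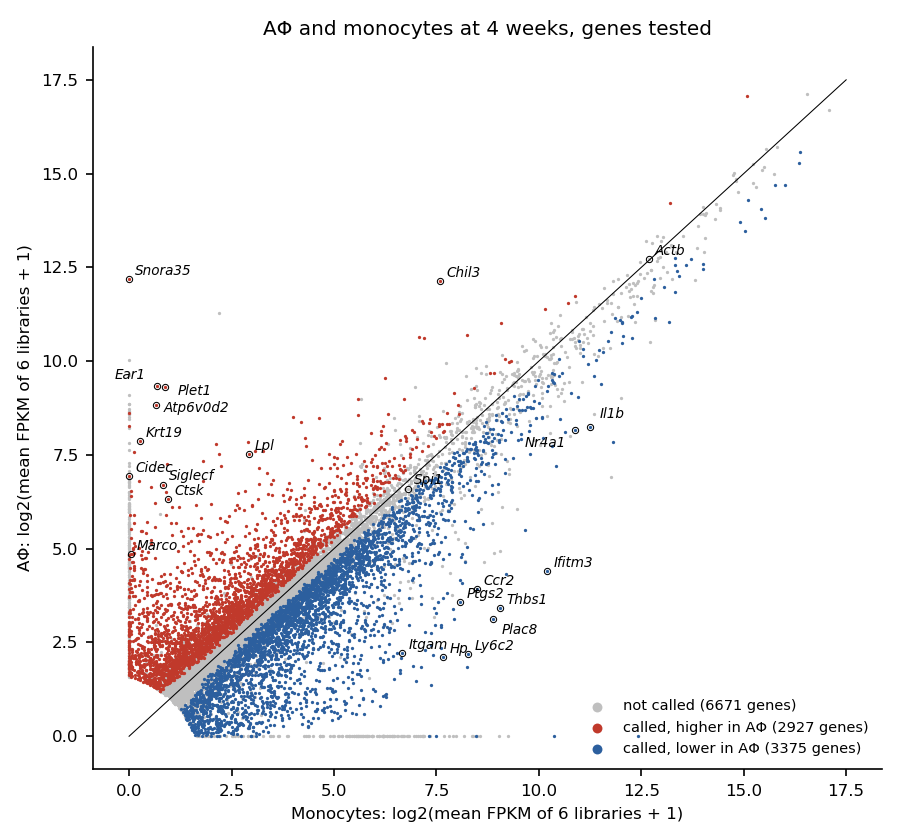
Mean FPKM of the 6 monocyte libraries (x axis) and of the 6 AΦ libraries (y axis), both as log2(mean + 1), for the 12973 genes tested, with the line of equal values. Red points are the 2927 genes called higher in AΦ and blue points the 3375 called lower, and circled genes are named in the text.

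Among the 10 genes with the largest rise and no overlap, 8 were protein-coding. Atp6v0d2, a subunit of the pump that acidifies lysosomes, had 340.4 to 523 FPKM (median 455) in AΦ and 0 to 0.877 FPKM (median 0.619) in monocytes (log2 fold change 8.19, SE 0.16, adjusted p 2.52e-11). Krt19, a keratin, had 178 to 285 FPKM (median 233) in AΦ and 0 to 0.328 FPKM (median 0.201) in monocytes (log2 fold change 7.60, SE 0.12, adjusted p 5.6e-12). Ereg, which encodes the EGF receptor ligand epiregulin, had 107 to 399 FPKM (median 119) in AΦ, with its highest value at 399 in the PM2.5 library of replicate 2, and at most 0.266 FPKM in monocytes (log2 fold change 7.26, SE 0.33, adjusted p 2.14e-08). Slc7a2, a carrier of arginine and lysine, had 99.7 to 148 FPKM (median 104) in AΦ and 0 to 0.415 FPKM (median 0.158) in monocytes (log2 fold change 6.56, SE 0.13, adjusted p 2.52e-11). Ltc4s, the synthase of leukotriene C4, had 132 to 190.2 FPKM (median 144) in AΦ and 0 to 1.71 FPKM (median 1.02) in monocytes (log2 fold change 6.44, SE 0.27, adjusted p 1.26e-08). The lipid droplet gene Cidec had 107 to 141 FPKM (median 121) in AΦ and was listed at 0 in all 6 monocyte libraries, so no fold is given (adjusted p 5.35e-13). The ribonuclease gene Ear1 (log2 fold change 8.80) and the surface protein gene Plet1 (8.47) completed the protein-coding genes. The small nucleolar RNA genes Snora35 and Gm25053 were listed at 0 in every monocyte library and had 3244 to 6754 FPKM (median 4295) and 119.8 to 877 FPKM (median 297) respectively in AΦ. That all 10 lay above every monocyte library follows from how they were chosen. In the mm10 annotation Atp6v0d2 lies on chromosome 4 and Krt19 on chromosome 11.

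Ly6c2, the Ly6C antigen of classical monocytes, had 0 to 16.5 FPKM (median 0) in AΦ and 164 to 516 FPKM (median 272) in monocytes (log2 fold change -7.07, SE 0.74, adjusted p 1.22e-05). Thbs1, which encodes the adhesive protein thrombospondin, had 0.104 to 32.1 FPKM (median 0.467) in AΦ and 289 to 793 FPKM (median 518) in monocytes (log2 fold change -7.05, SE 0.91, adjusted p 6.63e-05). Pglyrp1, a receptor for bacterial peptidoglycan, had 0 to 6.66 FPKM (median 0) in AΦ and 82.0 to 255 FPKM (median 159.9) in monocytes (log2 fold change -6.42, SE 0.57, adjusted p 3.7e-06). Hp, which encodes the haemoglobin-binding protein haptoglobin, had 0 to 11.3 FPKM (median 1.25) in AΦ and 124 to 270.3 FPKM (median 200.3) in monocytes (log2 fold change -6.16, SE 0.61, adjusted p 8.57e-06). Apoc2, the activator of lipoprotein lipase, had 0 to 9.27 FPKM (median 1.35) in AΦ and 104 to 259.7 FPKM (median 163) in monocytes (log2 fold change -5.86, SE 0.61, adjusted p 1.16e-05). Plac8 (-7.29), Ifitm3 (-7.17), Ifitm6 (-7.09) and the small nucleolar RNA gene Gm23202 (-6.38) were also among the 10 largest falls without overlap. Without replicate 2 in all groups the falls were larger for Plac8 (-8.80), Ifitm3 (-8.44), Ly6c2 (-8.40), Thbs1 (-8.34) and Hp (-7.16), whose highest AΦ values were those of replicate 2.

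Promoter sequence is shown for the first genes of each direction, by log2 fold change, that hold GAGGAAGT on either strand. These letters are a core form of the site of PU.1, the factor encoded by Spi1 that both cell types need. Each line runs 5′ to 3′ on the gene's strand from 250 bases before to 50 bases after the start, as RefSeq gives it on GRCm38.p6, with GAGGAAGT or its reverse complement in capitals.
Mcoln3, chr3:146121541-146121840, plus strand, higher in AΦ: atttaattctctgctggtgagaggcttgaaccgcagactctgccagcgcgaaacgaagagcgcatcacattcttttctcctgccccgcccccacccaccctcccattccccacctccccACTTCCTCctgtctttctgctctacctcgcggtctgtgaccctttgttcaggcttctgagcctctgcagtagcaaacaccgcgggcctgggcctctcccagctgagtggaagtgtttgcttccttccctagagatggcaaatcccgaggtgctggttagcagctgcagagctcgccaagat
Spp1, chr5:104434861-104435160, plus strand, higher in AΦ: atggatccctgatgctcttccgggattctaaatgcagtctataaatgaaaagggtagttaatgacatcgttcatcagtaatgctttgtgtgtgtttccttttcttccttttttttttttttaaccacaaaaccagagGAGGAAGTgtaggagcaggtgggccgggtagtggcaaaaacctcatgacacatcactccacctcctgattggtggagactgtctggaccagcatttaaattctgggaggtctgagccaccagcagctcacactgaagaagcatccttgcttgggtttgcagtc
Ly6c2, chr15:75111922-75112221, minus strand, lower in AΦ: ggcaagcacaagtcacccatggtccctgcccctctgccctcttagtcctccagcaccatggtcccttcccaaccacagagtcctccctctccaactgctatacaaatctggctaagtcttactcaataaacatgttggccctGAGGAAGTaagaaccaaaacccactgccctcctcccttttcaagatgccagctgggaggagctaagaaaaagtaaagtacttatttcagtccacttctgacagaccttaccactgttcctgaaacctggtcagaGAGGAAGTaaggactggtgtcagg
Adgre4, chr17:55749734-55750033, plus strand, lower in AΦ: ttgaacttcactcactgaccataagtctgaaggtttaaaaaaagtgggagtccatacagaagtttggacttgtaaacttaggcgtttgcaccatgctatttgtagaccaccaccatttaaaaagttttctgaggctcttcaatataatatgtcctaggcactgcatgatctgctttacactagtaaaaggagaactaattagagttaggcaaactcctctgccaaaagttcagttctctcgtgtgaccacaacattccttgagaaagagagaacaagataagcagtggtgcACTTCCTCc
Ly6c2 held the letters at 2 places, 108 bases before and 26 bases after the base at the start, and the other 3 promoters held them once. A match of letters is a description and not a bound site. Of all genes tested 8170 had a promoter entry, and 304 of these entries (3.72%) held GAGGAAGT. Motif shares of the 200 genes with the largest rise and the 200 with the largest fall are not compared here. Only 143 and 133 of them had an entry, and the rest could not be read.

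The genes that define the gates were read first as a check of the labels. Siglecf had 69.6 to 142 FPKM (median 104) in AΦ and 0.179 to 1.62 FPKM (median 0.584) in monocytes, and Itgax, which encodes CD11c, had 49.7 to 63.9 FPKM (median 60.7) in AΦ and 8.53 to 16.7 FPKM (median 13.6) in monocytes. Itgam, which encodes CD11b, had 0.669 to 10.2 FPKM (median 1.06) in AΦ, where its highest value was in replicate 2, and 89.4 to 121 FPKM (median 97.3) in monocytes. These 3 genes went with their labels in all 12 libraries. Cd24a was higher in AΦ (2.11) and Ptprc, the gene of CD45, lower (-1.43). Fcgr1, which encodes CD64, did not pass, with 14.5 to 20.1 FPKM (median 18.2) in AΦ and 8.46 to 45.3 FPKM (median 14.2) in monocytes. H2-Ab1 did not pass either, at 271 to 746 FPKM (median 658) in AΦ and 45.5 to 982 FPKM (median 456) in monocytes, although the study describes the sorted monocytes as negative for MHC class II. Ly6g was listed at 0 in all AΦ libraries and reached at most 2.47 FPKM in monocytes.

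Markers of AΦ were higher in AΦ for 27 of 29 genes tested and lower for 0, with a median log2 fold change of 4.81 where that of all genes was -0.048. Counts of this and the later lists are to be read beside the shares of all genes tested, 22.6% higher and 26% lower. A count near these shares is no result about its list. Chil3, the chitinase-like protein Ym1, had 3636 to 5451 FPKM (median 4507) in AΦ and 100 to 250.1 FPKM (median 199) in monocytes (log2 fold change 4.59, SE 0.21, adjusted p 1.91e-08). The carbonic anhydrase gene Car4 (5.20), the keratin gene Krt79 (6.43), the scavenger receptor gene Marco (4.53), the phagocytic receptor genes Mertk (5.16) and Axl (4.81) and the ribonuclease gene Ear2 (2.53) rose as well. Fabp4, a fatty acid carrier often used as an AΦ marker, did not pass, with 17.9 to 41.5 FPKM (median 23.8) in AΦ and 22.1 to 42.9 FPKM (median 38.1) in monocytes.

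Monocyte markers were lower in AΦ with few exceptions. Of 19 classical markers tested 18 were lower in AΦ and 0 higher (median -4.90), and of 20 non-classical markers 19 were lower and 1, the fatty acid carrier gene Fabp5, higher (median -3.89). Ccr2, the receptor that brings classical monocytes out of the marrow, had 3.67 to 34.3 FPKM (median 5.73) in AΦ and 171 to 659.8 FPKM (median 294) in monocytes (log2 fold change -4.93, SE 0.59, adjusted p 3.79e-05). The matrix gene Vcan (-4.90) and the transglutaminase gene F13a1 (-5.11) fell with it. Of the non-classical markers, Ace, which encodes angiotensin-converting enzyme, had 3.30 to 12.2 FPKM (median 4.14) in AΦ and 115 to 302 FPKM (median 186) in monocytes (log2 fold change -4.80, SE 0.37, adjusted p 1.28e-06). Treml4 (-3.87), Spn (-3.51), which encodes CD43, the chemokine receptor gene Cx3cr1 (-4.54) and the adhesion receptor gene Adgre4 (-5.76) were lower too. Transcripts of both monocyte forms were thus present in every monocyte library. The summed FPKM of the 19 classical markers was 436 to 553 in AΦ replicates 0 and 1, 798 and 850 in AΦ replicate 2, and 2928 to 5764 in monocytes.

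**Figure D3:**
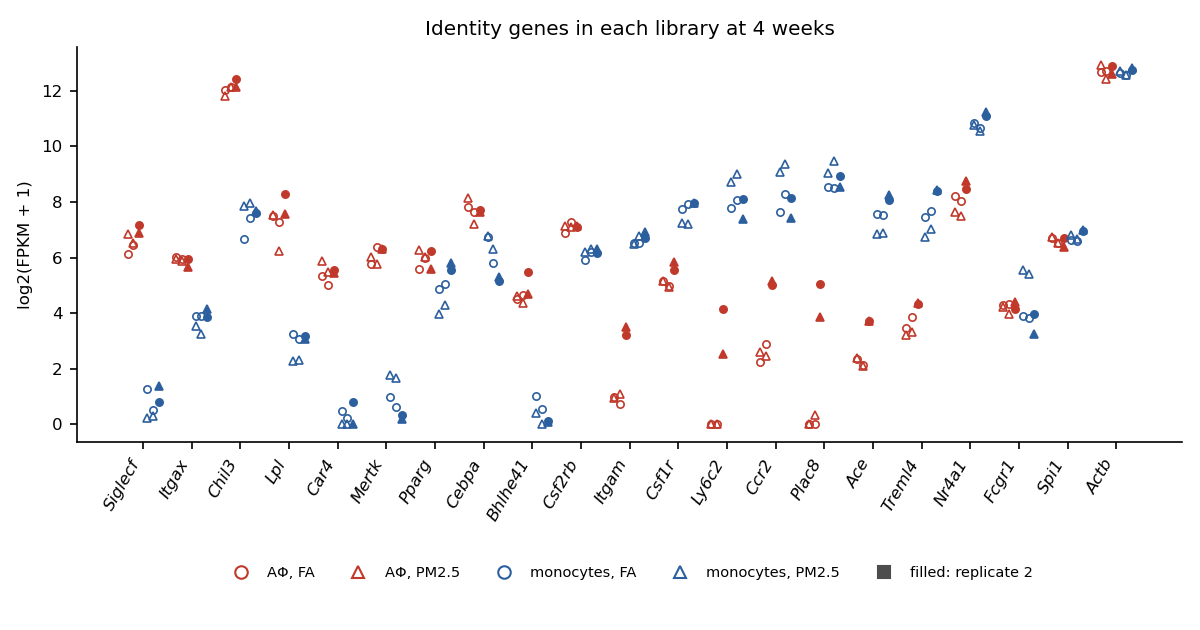
FPKM of 21 identity genes in each of the 12 libraries, as log2(FPKM + 1), with AΦ in red, monocytes in blue, circles for FA, triangles for PM2.5 and filled symbols for replicate 2. Siglecf, Itgax and Chil3 lay higher in all AΦ libraries, Itgam, Ly6c2 and Ccr2 lay higher in all monocyte libraries, and Fcgr1, Spi1 and Actb overlapped.

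Transcription factor genes fell more often than they rose. Of 47 tested 12 were higher in AΦ, 28 lower and 7 not called (median -0.93). Bhlhe41, a repressor that AΦ use for self-renewal, had 19.7 to 43.5 FPKM (median 23.7) in AΦ and 0 to 1.04 FPKM (median 0.197) in monocytes (log2 fold change 4.36, SE 0.19, adjusted p 1.77e-08). Rxra, the partner of PPAR-gamma, had 72.8 to 96.1 FPKM (median 87.5) in AΦ and 16.6 to 20.6 FPKM (median 17.8) in monocytes (log2 fold change 2.16, SE 0.091, adjusted p 1.09e-08). Pparg itself had 47.0 to 76.0 FPKM (median 63.2) in AΦ and 14.6 to 54.5 FPKM (median 30.1) in monocytes, so it overlapped, and was higher in AΦ (log2 fold change 1.03, SE 0.30, adjusted p 0.0137). Cebpa (1.68), the lysosomal gene regulator Tfec (3.71), Egr2 (3.10) and the liver X receptor gene Nr1h3 (0.91) rose. On the other side, Nr4a1, which non-classical monocytes need, had 178 to 427 FPKM (median 281) in AΦ and 1506 to 2397 FPKM (median 1784) in monocytes (log2 fold change -2.76, SE 0.23, adjusted p 1.87e-06). Maf (-1.95), Klf2 (-2.88), Klf4 (-1.70), Cebpb (-0.74) and Pou2f2 (-4.91) fell, as did the interferon regulator Irf7 (-4.41), which is outside this list. Runx3 fell as well (-4.02). Spi1 (-0.19), Irf8 (-0.39) and Bhlhe40 (0.48) did not pass, and Gata6 of peritoneal macrophages was below the limit of 1 FPKM.

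Receptors of CSF1 and G-CSF were lower in AΦ, and the signalling chain of the GM-CSF receptor and both TGF-beta receptors were higher. Csf1r, the receptor of CSF1, had 29.4 to 55.8 FPKM (median 34.7) in AΦ and 148 to 247 FPKM (median 228) in monocytes (log2 fold change -2.41, SE 0.20, adjusted p 2.04e-06). Csf3r, the receptor of G-CSF, was lower as well (-3.17), as was Flt3, the receptor of the growth factor FLT3 ligand (-2.32). Csf2rb, the signalling chain that the receptors of GM-CSF and IL-3 share, was higher at 116 to 153 FPKM against 59.3 to 79.1 (0.92). Csf2rb2, the chain for IL-3, was higher by 1.81. Csf2ra, the chain that binds GM-CSF, did not pass (0.066). Tgfbr1 and Tgfbr2, the receptors of TGF-beta, were higher in AΦ (0.89 and 1.05), as was the BMP receptor gene Bmpr1a (1.38), while the ligand gene Tgfb1 was lower (-0.76). In all 5 of 16 tested genes of this list were higher and 5 lower, and the median of -0.12 turned positive under each scaling tried (0.085 to 0.20).

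Chemokine receptors and adhesion molecules were lower in AΦ for 17 of 34 genes and higher for 7 (median -0.91). Without replicate 2 they were lower for 20 of 33 and higher for 6 (median -1.44). The integrin gene Itgb7 had 0.494 to 5.16 FPKM (median 1.62) in AΦ and 76.9 to 118 FPKM (median 98.2) in monocytes (log2 fold change -5.06, SE 0.36, adjusted p 6.42e-07), and Itga4 (-2.95) and Itgal (-1.93) fell too. The sphingosine receptor gene S1pr5 fell further (-5.52), and the integrin gene Itgb3 was lower (-2.83). Fpr1, the receptor for formylated peptides, went the other way with 287 to 475 FPKM (median 384) in AΦ and 14.1 to 87.1 FPKM (median 44.7) in monocytes (log2 fold change 3.21, SE 0.38, adjusted p 3.39e-05). Cxcr1 (2.42) was also higher. Outside this list the junction gene F11r (3.65), the complement receptor gene C5ar2 (1.98) and the cadherin gene Cdh1 (3.24) of the epithelial list were higher too. Cxcr2 did not pass (-0.42). Its highest value, 37.6 FPKM, was in the PM2.5 monocyte library of replicate 2.

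Of 41 chemokine and cytokine genes 15 were higher and 17 lower (median -0.41). Without replicate 2 the counts were 14 and 20 of 40 (median -0.83). Il1b, an inflammatory interleukin, had 54.3 to 805 FPKM (median 118) in AΦ and 1276 to 4251 FPKM (median 1766) in monocytes (log2 fold change -3.53, SE 0.68, adjusted p 0.00125). Its relative Il1a went the other way, at 65.9 to 456 FPKM (median 114) in AΦ and 6.78 to 30.8 FPKM (median 18.3) in monocytes (log2 fold change 3.17, SE 0.53, adjusted p 0.000449), and so did Il18 (3.68). Tnf had 469 to 685 FPKM (median 558) in AΦ and 147 to 387 FPKM (median 215) in monocytes (log2 fold change 1.30, SE 0.26, adjusted p 0.00144). Spp1, which encodes osteopontin and whose promoter is printed above, was 101 to 192 FPKM in AΦ and 3.06 to 5.54 in monocytes (4.94). The chemokine gene Ccl6 rose (1.95) and Cxcl2 did not pass (0.42). The vascular growth factor gene Vegfa (-3.42) and the costimulatory ligand gene Tnfsf9 (-3.06) fell.

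Among scavenger and phagocytic receptors 9 of 25 were higher and 6 lower (median 0.37, and -0.00042 without replicate 2). These are 36% and 24%, where all genes tested had 22.6% and 26%. Marco had 6.42 to 49.3 FPKM (median 28.4) in AΦ and 0 to 0.117 FPKM (median 0) in monocytes, and the mannose receptor gene Mrc1 had 162 to 218 FPKM (median 197) in AΦ and 1.07 to 16.5 FPKM (median 9.50) in monocytes (log2 fold change 4.72, SE 0.52, adjusted p 1.96e-05). Siglec1, the sialic acid receptor of tissue macrophages, rose by 3.80 and the oxidised lipoprotein receptor gene Olr1 by 2.88. Msr1 was 0.791 to 9.98 FPKM in AΦ and 17.9 to 52.6 in monocytes (-3.04), and so fell, as did the receptor genes Cd93 (-2.51) and Fcgr4 (-2.09). Cd36 (-0.73) and Cd163 (0.56) did not pass.

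Of 38 innate sensors 20 were lower in AΦ and 6 higher (median -0.64). Tlr9, the sensor of bacterial DNA, was 0.584 to 7.28 FPKM in AΦ and 27.6 to 44.6 in monocytes (log2 fold change -3.45, SE 0.41, adjusted p 3.28e-05), and Tlr7 (-0.88), Nod2 (-2.71) and the lectin genes Clec4e (-2.40) and Clec4a1 (-5.03) fell as well. Tlr4, the sensor of endotoxin, was 50.04 to 84.1 FPKM in AΦ and 10.2 to 20.9 in monocytes (log2 fold change 1.96, SE 0.20, adjusted p 1.17e-05), and Tlr5 (1.68), Tlr3 (1.26) and the lectin gene Clec4n (2.72) were also higher. Tlr2 did not pass (0.45).

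**Figure D4:**
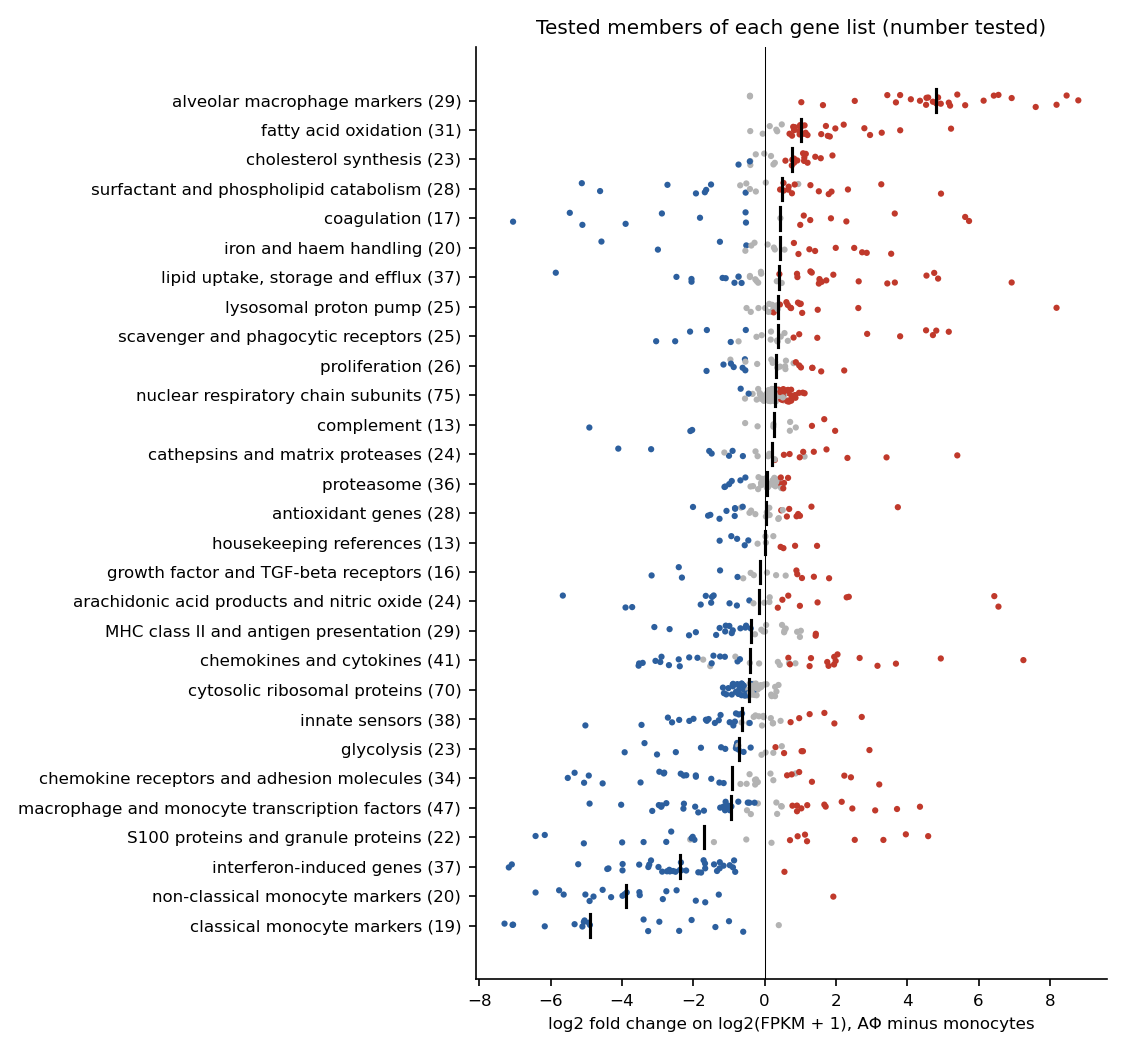
Log2 fold changes, AΦ minus monocytes, of the tested members of each gene list, with the number tested in brackets and a black bar at the median of the list. Red points were called higher in AΦ, blue points lower and grey points neither, from AΦ markers at the top to classical monocyte markers at the bottom.

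Of 37 genes for lipid uptake, storage and efflux 18 were higher and 9 lower (median 0.41). Lpl, the lipoprotein lipase, had 74.8 to 315 FPKM (median 183) in AΦ and 3.88 to 8.42 FPKM (median 7.42) in monocytes (log2 fold change 4.54, SE 0.26, adjusted p 1.3e-07). Abcg1, which exports cholesterol, had 412 to 575 FPKM (median 525) in AΦ and 31.4 to 68.8 FPKM (median 43.9) in monocytes (log2 fold change 3.44, SE 0.19, adjusted p 9.09e-08), and its relative Abca1 rose less (1.32). The lipid droplet gene Plin2 (1.28), the carrier genes Fabp5 (1.93) and Fabp1 (4.86) and the lipase genes Lipa (1.52) and Mgll (4.76) were higher. Apoe, the carrier apolipoprotein, was lower with 61.7 to 968 FPKM (median 251) in AΦ and 969 to 1871 FPKM (median 1535) in monocytes (log2 fold change -2.47, SE 0.52, adjusted p 0.00204), as was Lipe (-2.05). In the list for surfactant and phospholipid catabolism 14 of 28 were higher and 8 lower (median 0.48), and without replicate 2 the counts were 11 and 10 (median 0.30). Pla2g15, the phospholipase of lysosomes, had 93.9 to 115 FPKM (median 106) in AΦ and 7.56 to 11.8 FPKM (median 10.6) in monocytes (log2 fold change 3.27, SE 0.12, adjusted p 2.96e-09), and Pld3 rose by 4.95 and the lysosomal enzyme gene Naglu by 1.88. Pla2g7 (-4.61) and Plbd1 (-5.13) fell. Gpd1, which links glycerol to sugar breakdown, was 1.89 to 8.92 FPKM in AΦ and 0 to 0.338 in monocytes (2.34).

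Fatty acid oxidation had the largest share of genes called in one direction among the metabolic lists, with 25 of 31 genes higher in AΦ and 0 lower (median 1.02, 0.995 without replicate 2). Cpt1a and Cpt2, which pass fatty acids into mitochondria, rose by 0.98 and 1.98. Hadha of the last steps had 39.2 to 52.3 FPKM (median 45.3) in AΦ and 17.8 to 20.4 FPKM (median 18.9) in monocytes (log2 fold change 1.203, SE 0.085, adjusted p 6.23e-07), and the dehydrogenase genes Acadm (1.15) and Acadvl (0.99) rose. The peroxisomal thiolase gene Acaa1b had 27.99 to 49.6 FPKM (median 37.5) in AΦ and at most 0.18 FPKM in monocytes (log2 fold change 5.23, SE 0.14, adjusted p 3.03e-10), and Acot1 rose by 3.80.

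Cholesterol synthesis was higher for 14 of 23 genes and lower for 2 (median 0.78), with Dhcr7 of the last step at 12.6 to 18.6 FPKM against 2.70 to 4.01 (1.90), Mvd at 1.57 and Sqle at 0.92. Glycolysis went the other way, with 13 of 23 lower and 5 higher (median -0.73). The muscle enolase gene Eno3 was 0.3995 to 1.28 FPKM in AΦ and 12.6 to 36.3 in monocytes (log2 fold change -3.92, SE 0.26, adjusted p 3.43e-07), and the sugar carrier gene Slc2a6 (-3.37) and Pgk1 (-0.77) fell, while Aldoc (2.94), Pfkfb4 (1.07), Pfkp (0.55) and Ldha (0.31) rose and Hk2 did not pass (-0.087). Nuclear genes of the respiratory chain were higher for 26 of 75 and lower for 2 (median 0.29). Under the 3 scalings tried 38 to 41 were higher and 0 or 1 lower (medians 0.49 to 0.61), and without replicate 2 19 were higher. Cox5a (1.07), Ndufa5 (1.12), Atp5g3 (0.96), Atp5b (0.66) and Sdha (0.53) rose, Cox7a2l fell (-0.67) and Ndufa1 (0.30) and Uqcrc1 (0.36) did not pass. Of the mitochondrial genome only mt-Nd6 and mt-Atp6 were in the table, both below the limit.

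The list of the lysosomal proton pump, which also holds membrane proteins of lysosomes such as Cd63 (2.63), had 13 of 25 higher and 0 lower (median 0.37). Under the 3 scalings tried 15 to 21 were higher (medians 0.57 to 0.73), and without replicate 2 13 were higher and 2 lower. Atp6v0a1 (1.49) and Atp6v0d1 (0.61) rose less than Atp6v0d2 above, and Atp6v1a did not pass (0.19). Cathepsins and matrix proteases were mixed, with 10 higher and 7 lower of 24 (median 0.21, 0.018 without replicate 2). Ctsk had 64.8 to 101 FPKM (median 73.3) in AΦ and 0.469 to 2.04 FPKM (median 0.669) in monocytes (log2 fold change 5.40, SE 0.18, adjusted p 1.65e-09), and Ctsd, the main aspartic protease of lysosomes, had 1229 to 2131 FPKM (median 1575) in AΦ and 122 to 179.8 FPKM (median 143) in monocytes (log2 fold change 3.42, SE 0.15, adjusted p 1.92e-08). Ctss (0.70), Ctsf (1.74) and Mmp19 (2.32) rose, Ctse (-4.10), Adam8 (-3.18) and Mmp8 (-0.998) fell, and Mmp12 did not pass (1.12).

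The estimates of the C1q and MHC class II genes turned on replicate 2. C1qa had 14.5 to 197 FPKM (median 41.8) in AΦ and 0.780 to 167 FPKM (median 57.9) in monocytes, and the 3 genes of C1q did not pass (0.87, 0.71 and 0.72 for C1qa, C1qb and C1qc). Without replicate 2 they were lower in AΦ, with log2 fold changes of -1.72, -1.76 and -1.73 (adjusted p 0.0285, 0.0119 and 0.0149), so the direction reversed. C3, the central component, was lower with and without it (-2.08 and -2.43), Cfb was higher (1.67 and 1.29) and Cfp did not pass (-0.20). In the complement list 3 of 13 were higher and 3 lower, and 3 and 7 without replicate 2. With all libraries both shares (23.1%) were near those of all genes tested, 22.6% higher and 26% lower. H2-Aa (0.99), H2-Ab1 (0.91), H2-Eb1 (1.02), the invariant chain gene Cd74 (0.56) and their activator Ciita (0.59) did not pass. Without replicate 2 all 5 estimates turned negative (-0.10, -0.24, -0.59, -0.014 and -0.080), and again none passed. Of the list for antigen presentation 15 of 29 were lower and 2 higher (median -0.39, -0.58 without replicate 2 and -0.068 scaled to the sum of FPKM). The class I genes B2m (-1.26) and Nlrc5 (-2.66) and the costimulatory gene Cd40 (-3.09) fell, and H2-DMa, which loads class II with peptide, rose (1.44).

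Interferon-induced genes fell almost as a whole, with 36 of 37 lower in AΦ and 1 higher (median -2.37). Scaled to the sum of FPKM 34 were lower, as were 36 without replicate 2. Ifitm2 and Ifitm1, which restrict viral entry, were 19.0 to 95.2 and 0 to 2.06 FPKM in AΦ and 550.2 to 1178 and 29.6 to 78.7 in monocytes (-4.38 and -5.23). Ifi27l2a was 9.91 to 28.5 FPKM in AΦ and 144 to 397 in monocytes (log2 fold change -3.98, SE 0.32, adjusted p 1.59e-06). Isg15, a ubiquitin-like modifier, was 2.08 to 14.0 FPKM in AΦ and 18.2 to 28.1 in monocytes (log2 fold change -1.86, SE 0.28, adjusted p 0.000213). The groups did not overlap for any of these 4 genes.

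S100 and granule proteins were higher for 8 and lower for 10 of 22 (median -1.69). S100a4 was 10.01 to 46.1 FPKM in AΦ and 261 to 339.6 in monocytes (log2 fold change -3.39, SE 0.33, adjusted p 6.96e-06), and S100a6 (-1.97) and Lyz1 (-2.05) fell as well. S100a1 was 83.7 to 146 FPKM in AΦ and 7.28 to 14.8 in monocytes (log2 fold change 3.33, SE 0.18, adjusted p 7.3e-08), and the protease inhibitor gene Wfdc21 rose by 3.96. Lyz2, the lysozyme of macrophages, was 8121 to 13236 FPKM in AΦ and 6836 to 9508 in monocytes and did not pass. S100a8 (-1.42) and S100a9 (-2.09) did not pass either.

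Iron and haem handling was higher for 9 of 20 and lower for 4 (median 0.42). The ferritin gene Fth1 had 2383 to 3091 FPKM (median 2691) in AΦ and 767 to 1507 FPKM (median 1156) in monocytes (log2 fold change 1.26, SE 0.17, adjusted p 9.96e-05), Ftl1 rose by 0.82, Hmox1, which breaks down haem, by 0.95 and Alas1, which starts its synthesis, by 2.86. Slc11a1, the metal carrier of phagosomes, was 0.491 to 8.40 FPKM in AΦ and 71.3 to 113 in monocytes (log2 fold change -4.57, SE 0.41, adjusted p 3.5e-06), Spic, a regulator of iron-recycling macrophages, fell (-2.99), the metallothionein gene Mt2 rose (3.55) and the iron exporter gene Slc40a1 did not pass (-0.28). Antioxidant genes split, with 8 higher and 9 lower of 28 (median 0.049). The counts were 10 and 5 when scaled to the sum of FPKM, and the median was -0.25 without replicate 2. Mgst3 (3.74), Txn1 (1.31), Prdx1 (0.99) and Gclm (0.94) rose, Prdx6 (-2.01), Slc7a11 (-1.58) and Sod1 (-1.07) fell, and Sod2 (-0.42) and Txnrd1 (0.062) did not pass.

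In the list for products of arachidonic acid and nitric oxide 9 genes were higher and 11 lower of 24, and 6 and 11 of 23 without replicate 2. Alox5, the first enzyme of leukotriene synthesis, had 58.5 to 94.7 FPKM (median 83.1) in AΦ and 7.41 to 26.8 FPKM (median 15.6) in monocytes (log2 fold change 2.36, SE 0.26, adjusted p 1.63e-05). Ptgs2, which makes prostaglandins, had 0.683 to 33.9 FPKM (median 1.65) in AΦ and 243 to 306 FPKM (median 262) in monocytes (log2 fold change -5.66, SE 0.77, adjusted p 9.96e-05), with 26.2 and 33.9 FPKM in the AΦ libraries of replicate 2 and at most 2.03 in the other 4. Hpgd, which inactivates prostaglandins, and the leukotriene B4 receptor gene Ltb4r1 fell as well (-3.71 and -3.90), and Ptgs1 did not pass (0.13). Nos2 and Arg1 were below the limit. Coagulation genes had 8 higher and 8 lower of 17 (median 0.44, 0.22 without replicate 2). F7, which starts clotting with tissue factor, had 59.7 to 87.1 FPKM (median 73.8) in AΦ and 0 to 0.848 FPKM (median 0.609) in monocytes (log2 fold change 5.62, SE 0.15, adjusted p 4.04e-10). F5 (-3.90), the thrombomodulin gene Thbd (-2.88), F10 (-0.52) and Serpinb10 (-5.46) fell with F13a1.

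Proliferation genes had 7 of 26 higher and 7 lower (median 0.33, -0.025 without replicate 2), and 10 and 3 when scaled to the sum of FPKM. Unscaled, both shares (26.9%) were near those of all genes tested, 22.6% higher and 26% lower. Mki67, which marks cycling cells, was 5.80 to 10.4 FPKM in AΦ and 2.75 to 4.41 in monocytes (log2 fold change 1.02, SE 0.13, adjusted p 7.52e-05), Bub1b rose by 1.59, Ccnd2 rose by 2.23 and Ccnd3 (-1.63) and the cell cycle inhibitor gene Cdkn1c (-0.94) fell, Top2a did not pass (0.57) and Ccnb1 was below the limit. Cytosolic ribosomal proteins were lower for 35 of 70 and higher for 0 (median -0.45), but scaled to the sum of FPKM 6 were lower and 2 higher. Rps3 (-0.62), Rps6 (-0.56) Rps19 (-1.14) and Rps24 (-1.17) fell, and Rpl3 (-0.20) and Rpl11 (0.18) did not pass. Proteasome genes had 5 higher and 6 lower of 36 (13.9% and 16.7%, below the shares of all genes), and 12 and 2 when scaled. The inducible subunit gene Psmb8 (-0.68), Psma7 (-1.13) and Psme1 (-1.11) fell, Psmd7 rose (0.54), and Psma1 (-0.096) and Psmb5 (0.40) did not pass. Actb was 5467 to 7814 FPKM in AΦ and 6152 to 7281 in monocytes (0.024, not called), as were Gapdh (0.24) and Tbp (-0.20). Of the other reference genes Hprt (0.45), Tubb5 (1.47) and Gusb (0.85) were higher and Ywhaz lower (-0.93), and Ppia was below the limit.

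Markers of other cells were read as a check of the sort. Neutrophil markers summed to 16.3 to 85.6 FPKM in AΦ and 176 to 1371 in monocytes, the highest being the PM2.5 library of replicate 2, and 5 of 9 tested were lower in AΦ, Cd177 (-5.07) and G0s2 (-3.52) among them. Dendritic cell markers summed to 103 to 310.4 FPKM in AΦ and 490.3 to 905 in monocytes, with 9 of 14 lower and 1 higher, and 13 lower without replicate 2. Cd209a was 0 to 13.2 FPKM in AΦ and 3.41 to 60.01 in monocytes (-3.38), Zbtb46 (-1.34), Bcl11a (-3.14) and Dpp4 (-2.42) fell, Clec9a rose at low levels (0.86) and Xcr1 was below the limit. B cell markers summed to 1.73 to 5.47 FPKM in AΦ replicates 0 and 1, 94.9 and 97.5 in replicate 2 and 40 to 68.8 in monocytes, though Cd79a and Ms4a1 were below the limit and Ighm made most of the monocyte value (34.9 to 65.8 FPKM). Cd79b fell by 1.17 on the log2 scale. T and NK markers summed to 205 to 269 FPKM in AΦ and 9.43 to 25.02 in monocytes of replicates 0 and 1, but 111 and 119.6 in those of replicate 2. Of 7 tested 1 was higher, Cd2 at 203 to 251 FPKM in AΦ against 1.73 to 5.70 (5.75), and 2 were lower. Cd3e, Cd3g, Cd8a and Ncr1 were below the limit and Cd4 did not pass (0.28).

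Of 5 lung epithelial markers tested 3 were higher in AΦ and 1 lower. Epcam was at 26.7 to 53.5 FPKM against 0 to 0.647 (5.13) and Sftpc at 3.17 to 15.7 against 1.08 to 5.52 (1.06). Scgb1a1 of club cells did not pass (1.26), and Sftpa1 and Sftpb were below the limit. Endothelial and stromal markers summed to 8.59 to 30.9 FPKM in AΦ and 28.3 to 59.1 in monocytes. Pecam1, which monocytes also express, fell (-3.48), Acta2 fell at low levels (-1.03), Vwf rose (1.35), Cldn5 did not pass (-0.10), and Cdh5, Col1a1 and Col1a2 were below the limit. Haemoglobin genes did not pass (-0.77, -0.30, -0.82 and -0.48 for Hba-a1, Hba-a2, Hbb-bs and Hbb-bt), and red cell markers summed to 4.09 and 5.38 FPKM in AΦ of replicate 2 against 9.78 to 66.2 in the others, and to 1.70 and 3.05 in monocytes of replicate 2 against 11.3 to 164. Epx of eosinophils was at 0 in all 12 libraries, Fcer1a at 0 in all AΦ libraries, and Ccr3 fell at low levels (-1.15). Of 3 platelet markers tested 2 were higher in AΦ and 1 lower. Pf4 of platelets and macrophages was higher (1.62, 0.34 without replicate 2). Clec1b was 6.68 to 16.6 FPKM in AΦ and listed at 0 in every monocyte library, and Ppbp, Itga2b and Gp9 were below the limit.

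Interstitial macrophages are the other macrophages of the lung and live in the tissue between the alveoli. Their 19 markers summed to 343 to 630.4 FPKM in AΦ replicates 0 and 1, 899 and 1989 in replicate 2, and 1894 to 2612 in monocytes. Apoe made the larger part of the monocyte sums. Of the 19 tested 3 (Mrc1, Trem2 and Pf4) were higher in AΦ and 6 lower. Without replicate 2 the counts were 1 higher and 10 lower. The estimates of Cd163, Lyve1 and Folr2 then turned negative (-0.39, -0.16 and -0.033) but did not pass. The defining genes Cd163, Lyve1 (0.55) and Folr2 (0.85) did not pass and were highest in the PM2.5 AΦ library of replicate 2 (12.5, 11.02 and 12.6 FPKM).

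The comparison was also made within each exposure. In FA exposed mice 4612 genes passed (35.6%) and in PM2.5 exposed mice 4019 genes (31%), with 3 libraries against 3. The variance was estimated from all 12 libraries in both, so these are not separate tests. Of the 3448 genes called in both 3445 had the same direction. The log2 fold changes of the exposures, which come from different libraries, correlated across the genes tested with a Pearson r of 0.73. A test of the difference between the exposures called 3 genes (0.0231%), where 374 had an unadjusted p under 0.05, and 12 to 19 genes when 1 replicate number was left out of all groups. Gm22786, a small nucleolar RNA gene, was listed at 0 in all AΦ and in all FA monocyte libraries and had 548, 195 and 329 FPKM in PM2.5 monocytes. The microRNA gene AC157602.1 had the same pattern with 373, 425 and 151 FPKM. Cdk8, a kinase of the mediator complex, was listed at 0 in the 3 PM2.5 AΦ libraries and had 7.68 to 14.3 FPKM in the other 9. Zeros of whole groups at such genes may be failed estimates.

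The contrast of 4-weeks was set against that of 32-weeks, using the 12 libraries numbered 2 (MF2 and Mono2), which the study's supplement calls tissue-resident for AΦ. No source used here gives the origin of Mono2. In these 24 libraries 13238 genes averaged 1 FPKM or more, and 6087 were called at 32-weeks (46%). Of 6227 genes called at 4-weeks and tested at both times 4406 (70.8%) were called in the same direction at 32-weeks, 53 in the opposite direction and 1768 not at all. A difference between the contrasts was called for 826 genes (6.24%), 483 further towards AΦ at 4-weeks and 343 further towards AΦ at 32-weeks. Without replicate 0, 1 or 2 in all groups 113, 39 and 512 genes were called, and 137 with the libraries numbered 1 at 32-weeks. For 705 of the 826 (85.4%) the mean of the monocytes moved more between the times than that of the AΦ. The same share over all genes tested is not given here, so this count is not read as particular to the called genes. Length of exposure, age and sequencing at 4 and 32-weeks cannot be told apart here.

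C1qa and C1qb had the largest differences among protein-coding genes. In monocytes C1qa was 314 to 1206 FPKM at 32-weeks against 0.780 to 167 at 4-weeks, while in AΦ it was 7.995 to 24.1 against 14.5 to 197 (difference of the log2 fold changes 6.34, SE 1.43, adjusted p 0.0113). C1qb moved alike (6.44, SE 1.39, adjusted p 0.00854). Of the interstitial macrophage markers 16 of 19 differed, all further towards AΦ at 4-weeks. Without replicate 2 the log2 fold changes at 4-weeks were negative for C1qa (-1.72), C1qb (-1.76), Cd163 (-0.39), Lyve1 (-0.16) and Folr2 (-0.033). Those of Cd163, Lyve1 and Folr2 did not pass. The differences of single genes between the times without replicate 2, or with the libraries numbered 1, are not given here. Cd163 was 29.3 to 130.3 FPKM in monocytes at 32-weeks and 0.0784 to 3.48 at 4-weeks (5.31), and Lyve1 (3.60), Folr2 (4.22), Apoe (3.02), Pf4 (6.11) and Mrc1 (3.01) differed in the same direction. Of AΦ markers 11 differed towards AΦ at 4-weeks and 4 towards AΦ at 32-weeks, of 29. Ear1 in monocytes was at most 2.01 FPKM at 4-weeks and 14.3 to 80.1 at 32-weeks (3.505), while Pparg (-2.10), Fabp4 (-2.497) and Ear2 (-1.47) differed the other way. None of the classical monocyte markers differed (0 of 19), where 6.24% of all genes tested did. Of 20 non-classical markers 7 differed, among them Spn (-1.91) and Treml4 (-2.001). No gene of the lists for fatty acid oxidation (31 tested), cholesterol synthesis (24) or the respiratory chain (74) differed. With so low a share among all genes, a count of 0 in a short list is no result about that list.

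**Figure D5:**
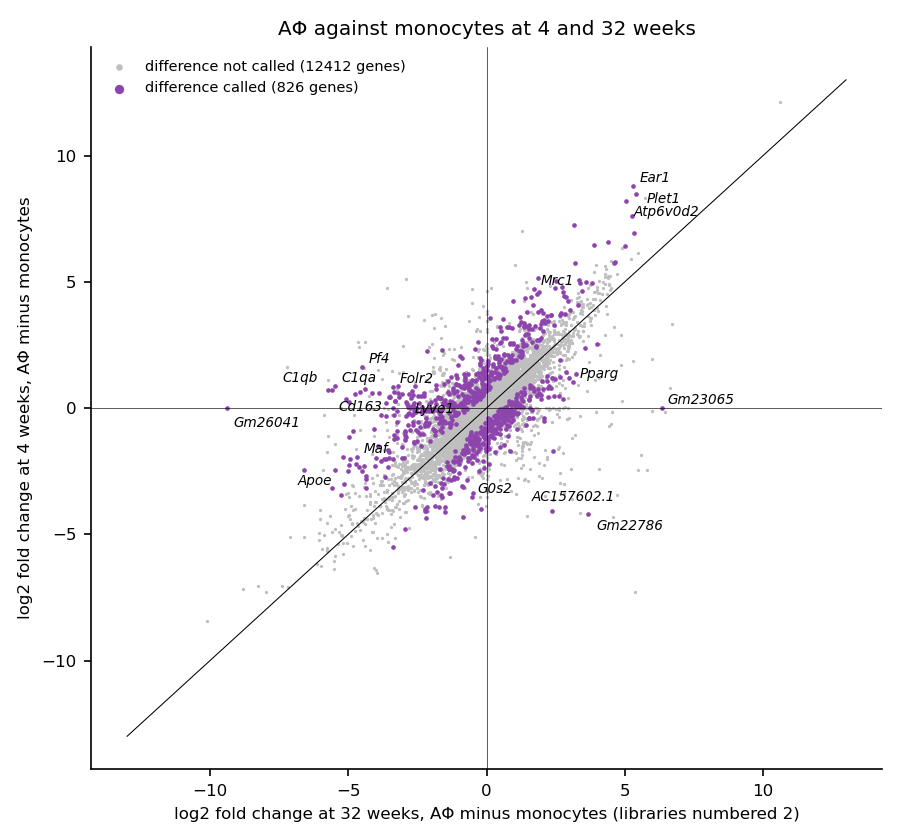
Log2 fold changes of AΦ minus monocytes at 32-weeks (x axis, libraries numbered 2) and at 4-weeks (y axis) for 13238 genes, with the line of equal values. Purple points are the 826 genes whose contrast differed between the times, with C1qa, C1qb, Cd163, Folr2 and Pf4 to the left of the line and Pparg, Gm22786 and Gm23065 to its right.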

How the data were processed

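AΦ and monocytes were flow sorted from lungs of FA and PM2.5 exposed mice, and RNA libraries were made with a kit that amplifies messenger RNA and keeps strand (SMART-Seq Stranded mRNA). The submitters' processing notes name STAR, Cufflinks and Cuffdiff and the build mm10. The authors deposited 1 table of FPKM per gene and library, with 27562 genes. These values are not counts, so no count model was used and depth is known only in relation between libraries, from the steps of the lowest values. Every column was mapped to a sample (0 left out). For 24 symbols held as date numbers the name was taken from the Ensembl ID, and 27413 IDs matched GENCODE M21.

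Genes that averaged 1 FPKM or more in the libraries fitted were compared by limma 3.58.1 (R 4.3.3) as log2(FPKM + 1), with exposure as a covariate, a trend in the empirical Bayes step and Benjamini-Hochberg adjustment at 0.05. The tests within each exposure and of differences used 1 mean per group in place of the covariate, fitted over all libraries of the test. For low genes the pseudocount of 1 makes fold changes too small. Each group had 3 libraries, which the study's methods call biological replicates from 3 mice. The study states that 3 mice of each exposure and time were picked for sequencing. AΦ and monocytes of an exposure may therefore come from the same mice, while the main test treats the 12 libraries as independent. The procedure was tested on simulated data with known changes in few genes and independent noise, and the outcome is not given here. That test says nothing about replicate 2, the scaling or libraries that share a mouse. The comparison, the gene lists and their defining members were chosen with earlier results of these data known.

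Named genes were, in the comparison of cell types, the 10 called genes without overlap with the largest log2 fold change in each direction, the defining members of each list whatever their values, and up to 2 further called members of a list in each direction without overlap. In each test of a difference they were up to 3 called genes in each direction. Fabp5, Trem2 and Cd79b in the text, where outside this rule, were named after their values were seen. Promoters came from RefSeq. Alternatives were a pseudocount of 0.1, no filter, other scalings, all 36 libraries, a block by replicate number, no trend, each library or replicate number left out, and, chosen after seeing the data, scaling to the protein-coding sum. A few genes that the rule names are not reported here.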

Additional observations from a re-analysis of the deposited data

Results flagged for a closer look

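The contrast of AΦ against monocytes differed between exposures, as tested by the interaction of cell type and exposure, for 3 genes, given here as PM2.5 minus FA on the log2(FPKM + 1) scale. Cdk8 differed by -3.98, with 0 in the 3 PM2.5 AΦ libraries and values above 0 in the other 9. Gm22786 differed by -8.36 and AC157602.1 by -8.18, each with values above 0 in the 3 PM2.5 monocyte libraries alone. At 32-weeks Cdk8 was above 0 in all 12 libraries numbered 2.

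Between 4 and 32-weeks the largest differences of the contrast, given as 4 minus 32-weeks, were 9.38 for Gm26041, 6.44 for C1qb and 6.34 for C1qa in the direction of AΦ at 4-weeks. Gm26041, annotated as ribosomal RNA, was at 0 in all 12 libraries of 4-weeks and in the AΦ of 32-weeks, and above 0 in 5 of 6 monocyte libraries of 32-weeks. In the other direction they were -7.85 for Gm22786, -6.47 for AC157602.1 and -6.33 for Gm23065, also annotated as ribosomal RNA, which was above 0 in 5 of 6 AΦ libraries of 32-weeks and at 0 in the rest. Without replicate 2 the log2 fold changes of C1qa and C1qb at 4-weeks were negative, as given above. Library, age and length of exposure cannot be told apart in these differences.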

How the results depend on the processing

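The count of 6302 genes was 6250 with a pseudocount of 0.1, 6988 without a filter, 6278 with quantile normalization or no trend, 6461 with all 36 libraries, and 6597 scaled to the protein-coding sum. Scaled to the sum of FPKM 1940 genes were lower and 526 differed between 4 and 32-weeks. The difference between exposures was called for 6 genes without a filter and 1 with all 36 libraries, and that between times for 137 genes with MF1 and Mono1. Without 1 library or 1 replicate number 4428 to 6204 genes were called in all, 2013 to 2926 higher, 2415 to 3427 lower, 2022 to 4884 in FA, 1732 to 3983 in PM2.5, 3 to 19 between exposures and 39 to 988 between times. Fits without a replicate number rest on fewer libraries. The replicate block gave 6659 genes, 3007 higher and 3652 lower, 4843 in FA, 4278 in PM2.5, 2 between exposures and 1059 between times. The study picked 3 mice of each exposure and time, so both cell types may share mice. No source used here says that AΦ and monocyte libraries of 1 number come from 1 mouse. Their deviations from the group means correlated by -0.016 to 0.078, and not every library correlated best with its own number, although replicate 2 had the lowest red cell marker sums in both cell types. The numbers were therefore not used as pairs. Of 228 called genes that could be named none changed sign in 5229 alternative values and 120 values missed the threshold. All that changed sign were not called here. The causes were not tested. Depth in reads is unknown, and differences of genes near 1 FPKM are the least certain. Under scaling to the sum of FPKM the estimate turned positive for Hk2 (0.22), Cfp (0.12), Spi1 (0.13), Tbp (0.072), Fcgr1 (0.22), Psma1 (0.22), Cldn5 (0.025), Rpl3 (0.12). Under quantile normalization the estimate turned positive for Hk2 (0.090), Cfp (0.011), Spi1 (0.13), Fcgr1 (0.050), Psma1 (0.16), Rpl3 (0.048). Under scaling to the protein-coding sum the estimate turned positive for Hk2 (0.11), Cfp (0.00022), Spi1 (0.015), Fcgr1 (0.11), Psma1 (0.11), Rpl3 (0.0042). Under a pseudocount of 0.1 the estimate turned positive for Hba-a2 (0.42). Over the fits without a library or a replicate number the estimates that changed sign ranged as follows, from lowest to highest log2 fold change, for Hk2 -0.16 to 0.042, Cfp -0.51 to 0.083, Cd163 -0.39 to 1.03, Tbp -0.35 to 0.055, Fcgr1 -0.46 to 0.15, Txnrd1 -0.016 to 0.14, Ciita -0.080 to 1.002, Cd4 -0.21 to 0.55, Cd74 -0.014 to 0.94, Slc40a1 -0.56 to 0.16, Cxcr2 -0.98 to 0.28, Actb -0.029 to 0.085, Lyve1 -0.16 to 0.95, Folr2 -0.033 to 1.29, H2-Aa -0.10 to 1.58, C1qa -1.72 to 2.18, C1qc -1.73 to 1.94, C1qb -1.76 to 2.04, Cldn5 -0.38 to 0.28, Ptgs1 -0.17 to 0.49, Mmp12 -0.0053 to 1.84, Csf2ra -0.040 to 0.17, H2-Eb1 -0.59 to 1.86, Hba-a2 -1.13 to 0.18 and H2-Ab1 -0.24 to 1.57.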
